A study of Mus musculus with 32 samples.

Results

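C1HV and C1H are 2 of the 8 groups of a mouse embryonic stem cell (ESC) study of β-catenin dose, with 4 libraries each and 8 of the 32 libraries in all. They were chosen by their sample labels alone: both are the fraction of cells sorted for a high level of exogenous β-catenin, taken in pluripotent culture at day 0 (C1H) or after 4 days of differentiation without further induction (C1HV). Every group derives from the single line C1, in which both copies of the β-catenin gene Ctnnb1 were deleted and which carries a fusion of a destabilizing domain, the red fluorescent protein mCherry and a constitutively active β-catenin mutant. Doxycycline (dox), acting through a transactivator driven by the EF1a promoter, starts transcription of the fusion, and trimethoprim (TMP) stabilises the protein. C1H cells were grown in NDiff227 medium with LIF, the GSK3 inhibitor Chiron at 3 µM and the MEK inhibitor PD0325901 at 1 µM (2i/L), received dox at 100 ng/mL and TMP at 10 µM for 48 h, and were sorted for high mCherry. C1HV cells came from such a sort and were then replated at low density in NDiff227 with only the solvent DMSO for 4 days. The day, the loss of LIF and of both inhibitors, the loss of dox and TMP and the replating therefore changed together between C1H and C1HV and cannot be told apart.

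Of the other groups, C1 was the same knockout line with TMP and no dox in pluripotent culture and C1T the same after 4 days with TMP alone. C1M and C1MV were the fraction sorted for a moderate mCherry level before and after the withdrawal, and C1HDT was the high fraction kept on TMP and dox for the 4 days. The labels call the 4 replicates of each group biological. The study describes the 4 samples averaged in its heatmaps as coming from a single experiment. The SDs and FDRs given here may therefore not cover the spread between independent experiments.

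Mouse ESCs in 2i/L resemble the naive epiblast of the blastocyst before implantation. When LIF and the inhibitors are removed, the naive transcription factor network is taken down and genes of the post-implantation epiblast come on, among them the de novo DNA methyltransferases, and cells then take up neural, mesodermal or endodermal programmes. β-catenin acts in this process both as the transcriptional effector of the Wnt pathway, where it works with TCF and LEF factors, and as the link between cadherins and the cytoskeleton at cell junctions.

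Reads at transcript 3′ ends were counted, so levels in CPM (counts per 1e6 reads on genes) are not divided by gene length. C1H libraries held 2331847 to 2840414 reads on genes and C1HV libraries 1502559 to 2318126. The share of uniquely mapped reads outside annotated genes was 22.1% to 23.1% in C1H and 12.5% to 14.5% in C1HV, and reads on the mitochondrial genome made up 2.07% to 2.63% of gene reads in C1H and 0.823% to 0.948% in C1HV. Both shares thus moved with the comparison, and their part in the results below was not tested. Of the marker list for blood cells (10 genes), 6 were tested and the macrophage gene Cd68 fell (log2 fold change -2.87); the summed CPM was 77.3 to 80.2 in C1H and 27.9 to 37.7 in C1HV. Of the fibroblast list (10 genes), 5 were tested and Tagln rose, at a summed CPM of 16.0 to 20.9 in C1H and 18.1 to 24.1 in C1HV.

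The comparison of C1HV with C1H asks how cells that had held a high level of β-catenin leave the pluripotent state once the protein is withdrawn. Genes of the naive network fell, post-implantation epiblast genes rose, and with them rose 10 of 14 endoderm factors tested and the collagen IV genes Col4a1 and Col4a2 of basement membrane, whose laminin genes went both ways. Of 15280 genes tested, 3357 were higher in C1HV (22.0%) and 3829 were lower (25.1%) at a false discovery rate (FDR) under 0.05 in edgeR's quasi-likelihood test. Among these, 419 lay above 2 on the log2 fold change scale (2.74%) and 922 below -2 (6.03%). The 4 C1HV libraries lay wholly above the 4 C1H libraries for 2862 genes (18.7%) and wholly below them for 3406 (22.3%). The median log2 fold change over all tested genes was -0.06. In these bulk samples fewer cells of a type and less RNA per cell cannot be told apart.

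Ctnnb1 itself (chromosome 9, 120929216 to 120960507, mm10) served as the check of the labels. C1H libraries held 40.5, 40.4, 48.7 and 34.9 CPM of Ctnnb1 and C1HV libraries 4.13, 6.26, 8.60 and 5.85. The groups did not overlap, and the level fell from 41.1 ± 5.70 (SD, n = 4) to 6.21 ± 1.84, with a fold change of -2.69 on the log2 scale (SE 0.22, edgeR FDR = 1.27e-22). In C1 cells, which never saw dox, it was 7.81 CPM, close to the C1HV level. Reads of the fusion and of what remains of the deleted gene cannot be told apart in these counts. Axin2, a direct Wnt target that feeds back on the pathway, moved the other way, from 2.38, 2.44, 1.47 and 0.840 CPM in C1H to 5.68, 2.84, 6.45 and 1.95 in C1HV. Its groups overlapped, with a fold change of 1.25 on the log2 scale (SE 0.49, edgeR FDR = 0.0265), and the call was lost without C1HV replicate 1 (1.11), C1HV replicate 3 (0.96), C1H replicate 3 (1.16) or C1H replicate 4 (1.05).

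The 10 largest rises among well expressed genes, by a rule on fold change, level and lack of overlap, joined developmental and surface genes. The RNA-binding protein Lin28a, which blocks let-7 maturation, went from 3.40, 8.01, 8.06 and 6.30 CPM in C1H to 543.8, 388.4, 462.6 and 432.4 in C1HV (log2 fold change 6.14, SE 0.20). The membrane-bound carbonic anhydrase Car4 went from 0.681, 1.39, 0 and 1.26 CPM to 99.7, 76.8, 92.9 and 92.3 (6.69, SE 0.33), and the trypsin inhibitor Spink1 from 0.681, 0.697, 2.20 and 2.52 to 153.9, 132.5, 130.3 and 132.6 (6.50, SE 0.23). Car4 and Spink1 thus stood at 2.52 CPM or less in every C1H library. Dnmt3l, the cofactor of the de novo methyltransferases, rose from 8.51, 9.76, 11.4 and 7.14 CPM to 378, 349.1, 400.7 and 355 (5.32, SE 0.16). The Nodal antagonist Lefty1 rose from 5.45, 4.18, 4.03 and 2.94 CPM to 279.4, 201.9, 281.2 and 250.3 (5.90, SE 0.24). Lef1, a transcription factor that recruits β-catenin to DNA, rose from 1.68 to 2.44 CPM in C1H to 63.2 to 105.3 in C1HV (5.21, SE 0.21), while the transcript of its partner fell. The growth cone protein Gap43 (5.66), the imprinted Nnat (5.33), the amino acid transporter Slc7a7 (5.12) and the sialomucin Podxl (4.35) completed the set.

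The 10 largest decreases were genes high in every C1H library. The aquaglyceroporin Aqp3 fell from 333.4, 408.7, 377.3 and 324.4 CPM to 8.26, 10.8, 6.45 and 15.0 (log2 fold change -5.21, SE 0.15), a 37-fold decrease. The citrate transporter Slc13a5 fell from 166.5, 159.2, 169.2 and 165.1 CPM to 6.20, 6.26, 5.59 and 5.85 (-4.78, SE 0.16), with a spread within each group far below the distance between them. The autophagy receptor Calcoco2 fell from 457.8 to 517.2 CPM in C1H to 14.8 to 23.8 in C1HV (-4.60). The collagen receptor Ddr2 (-4.07), the basement membrane linker Nid1 (-3.90), Myof (-3.45), the adenylate kinase Ak4 (-3.40), the phosphatase Dusp14 (-3.38), the cytokine Il34 (-3.37) and Tmem64 (-3.33) followed.

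**Figure D1:**
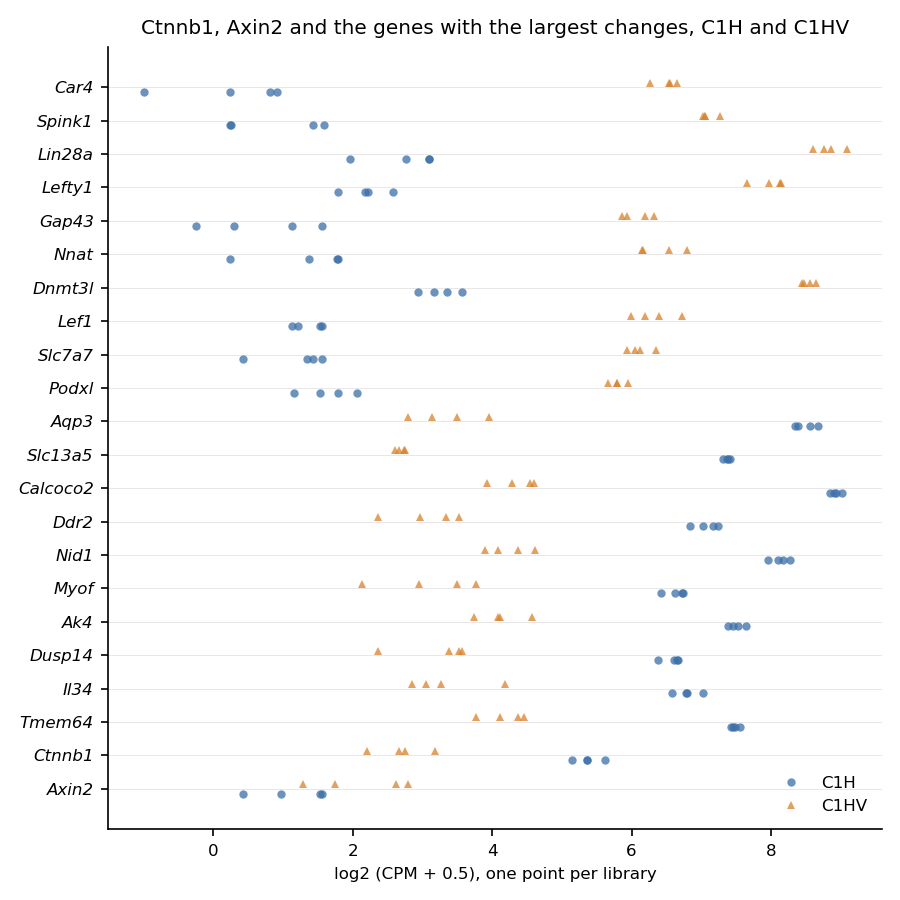
Levels of Ctnnb1, Axin2 and the 20 genes with the largest rise or decrease, as log2(CPM + 0.5) on the x axis, with 1 point per library (circles, C1H; triangles, C1HV; 4 libraries each). Every gene except Axin2 shows 2 separate clusters of points, and Ctnnb1 moves from 34.9 to 48.7 CPM down to 4.13 to 8.60 CPM.

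Gene lists of textbook markers and pathways, 35 in all with 681 tested genes, placed these changes. They had been drawn up with earlier results of these data known, so their counts are read beside the share of all genes that passed. Of the naive pluripotency list (25 of 26 members tested) 22 fell and 2 rose, beside 25.1% and 22.0% of all genes. The median log2 fold change was -1.61. The largest decrease was that of Prdm14, a repressor of methylation and FGF signalling, from 49, 46.0, 51.3 and 54.2 CPM to 5.16, 5.69, 3.87 and 5.20 (-3.34, SE 0.23). Tfcp2l1, a mediator of LIF self-renewal, fell from 1238, 1164, 1139 and 1263 CPM to 131.7, 129.1, 117.8 and 133.9 (-3.23, SE 0.08). Jam2, an adhesion molecule of the naive state, fell from 224.9 to 257.5 CPM to 21.6 to 33.5 (-3.12, SE 0.13), and Tet2, a methylcytosine oxidase, by 3.10. The reprogramming factor Klf4 fell from 938.4, 823.7, 824.1 and 889.1 CPM to 88.3, 111.4, 92.4 and 124.8 (-3.07, SE 0.10), a decrease of 8.41-fold.

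Nanog, Esrrb and Zfp42, regulators of the naive network, also fell. Nanog held 555.7, 586.1, 584.2 and 553.4 CPM in C1H and 141.5, 188.8, 158.2 and 164.5 in C1HV (-1.81, SE 0.08). Esrrb, an orphan receptor downstream of GSK3 inhibition, went from 379.3, 364.1, 367.0 and 375.2 CPM to 110.5, 114.3, 119.5 and 122.2 (-1.67, SE 0.09). Zfp42, known as Rex1, went from 394.3, 371.8, 375.1 and 366.0 CPM to 113.1, 156.9, 136.7 and 126.1 (-1.50, SE 0.14). In none of these did any C1HV library reach the C1H range. The 2 that rose were Gbx2 (1.25), a LIF target that is also an early neural gene, and the lysosomal enzyme Manba (1.24), and the remaining member Dppa3 did not pass. Without C1HV replicate 2 Manba lost its call, which left 1 that rose.

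Factors shared by naive and later pluripotency gave 9 of 15 higher and 3 lower, beside 22.0% and 25.1% of all genes, with a median of 0.39. Pou5f1, which encodes Oct4, was 48, 41.1, 35.2 and 34 CPM in C1H and 41.8, 39.8, 32.3 and 34.5 in C1HV, groups that overlapped (log2 fold change -0.10, SE 0.14, edgeR FDR = 0.561). Sox2 fell modestly, from 728.1 to 787.4 CPM to 447.2 to 596.5 (-0.55, SE 0.09). Tdgf1, the Nodal co-receptor Cripto, fell from 527.8, 584.3, 590.8 and 592.0 CPM to 109.5, 158.6, 123.0 and 138.5 (-2.12, SE 0.10), and the DNA-binding protein Dppa2 by 1.20. After Lin28a, the largest rises were those of the chromatin factor Utf1 (1.44) and Zscan10 (0.82).

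Of the post-implantation epiblast list 16 of 17 tested members rose, against 22.0% of all genes, and the median was 2.10. Otx2, which redirects Oct4 to formative enhancers, rose from 85.5, 81.2, 74.3 and 73.5 CPM to 296.9, 279.2, 296.2 and 298.4 (1.89, SE 0.09). Pou3f1, or Oct6, rose from 12.6, 6.62, 8.42 and 5.88 CPM to 98.1, 89.3, 101.0 and 91.0 (3.48, SE 0.20). Fgf5, the classical marker of this stage, stayed low, at 0, 0.348, 0.732 and 0.840 CPM in C1H and 7.23, 5.12, 5.59 and 7.15 in C1HV. As no C1H library held more than 3 reads of it, only a bound can be given, at least 5.67-fold higher. The growth factor Fgf15 rose from 0.420 to 2.04 CPM to 14.2 to 22.1 (3.84), and Car14, a carbonic anhydrase, showed the second largest rise of the list after Lef1 (4.92). Foxd3, needed for epiblast maintenance, was the 1 member that fell, from 14.7 to 28.6 CPM to 3.61 to 9.67 (-1.56, SE 0.24).

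The de novo methyltransferases rose together with their cofactor. Dnmt3b went from 23.5, 24.4, 15.4 and 20.6 CPM to 279.9, 265.5, 265.3 and 267.2 (3.68, SE 0.12) and Dnmt3a from 46.0, 51.6, 36.6 and 50.4 to 164.2, 179.7, 170.7 and 197.0 (1.94, SE 0.10). Tet1 fell from 688.2 to 726.0 CPM to 275.2 to 343.4 (-1.16, SE 0.08), as did the deaminase Apobec1 (-1.72). Over the list of DNA methylation and demethylation, 5 of 13 rose and 2 fell, beside 22.0% higher and 25.1% lower among all genes, and the maintenance enzyme Dnmt1 (-0.14) did not pass. The small list of LIN28, HMGA and IGF2BP genes leaves out Lin28a, since it stands in the general pluripotency list. Of the list's 8 genes 3 rose, led by Trim71 (0.48), and Dnajc6 (-1.96) and Hmga2 (-0.63) fell, too few to set apart from that share. Trim71 and Dnajc6 were counted in this list but belong to none of the families in its name.

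Signalling lists differed in how many of their members changed, beside 22.0% higher and 25.1% lower among all genes. Of the LIF and STAT3 list 7 of 15 fell and 2 rose: the feedback inhibitor Socs3 fell from 71.2, 83.3, 85 and 76.9 CPM to 7.75, 7.96, 9.03 and 6.50 (-3.31, SE 0.18) and the coactivator Bcl3 from 127.5 to 138.2 CPM to 12.5 to 21.2 (-2.87). Ly6e (0.48) and the receptor Lifr (0.38) rose. ERK response genes, which the MEK inhibitor holds down, rose in 9 of 20 cases and fell in 3. The ERK phosphatase Dusp4 rose from 1.36, 2.79, 1.47 and 2.52 CPM to 52.7, 56.3, 44.7 and 58.5 (4.67, SE 0.24), and the feedback inhibitor Spry4, at 0 to 0.348 CPM in C1H, reached 2.60 to 6.26 CPM in C1HV, at least 4.18-fold higher. The immediate early gene Fos (-1.50), Dusp5 (-1.20) and Ier2 (-0.84) were the members that fell. Of 14 Nodal genes 6 rose, among them Lefty2, from 2.52 to 5.57 CPM to 74.9 to 97.5 (4.28), and the inhibitory Smad7 fell from 183.1 to 253.7 CPM to 23.2 to 32.5 (-2.88), as did the convertase Pcsk6 (-1.68). Of 13 BMP and ID genes 3 rose (Id1 1.89, Id2 1.27, Bmpr1a 0.55) and Bmp8b fell (-1.52). The number that fell was 0 without C1HV replicate 4 or C1H replicate 1 and 3 without C1HV replicate 3. Of 18 retinoid genes 5 rose, led among those above the counting floor by the binding protein Crabp2 (4.71), and 4 fell. Aldh1a3, which makes retinoic acid, was at least 11.2-fold lower. Of 16 Eph and ephrin genes 5 rose, led by Efnb2 (2.68), Efnb1 (2.02) and Efna2 (1.22), and 3 receptors fell (Epha5, Epha4 and Epha7). The shares of the BMP, retinoid and Eph lists that rose were near that of all genes, and their counts are not a result about these lists.

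Wnt target and feedback genes gave 6 of 16 higher and 0 lower, beside 22.0% and 25.1% of all genes, with a median of 0.29, or 0.11 when the 5 genes at the counting floor are put at their bounds. Ccnd1, the G1 cyclin, rose from 18.7, 18.8, 14.3 and 18.1 CPM to 132.7, 125.7, 111.4 and 111.2 (2.78, SE 0.13), and the receptor Fzd7 by 2.23. The antagonist Dkk1 was at least 4.38-fold higher, and Sox4 (1.88) and Myc also passed, the latter at no more than 2.60 CPM in any of the 8 libraries. At cell junctions, E-cadherin (Cdh1) fell from 575.1, 568.7, 540.2 and 651.2 CPM to 179.7, 216.6, 207.7 and 199.0 (-1.54, SE 0.08), plakoglobin (Jup) by 1.16 and α-catenin (Ctnna1) by 0.54, and N-cadherin (Cdh2) rose from 2.94 to 3.83 CPM to 5.12 to 10.3 (1.19). The tight junction gene Cldn6 (4.41), Vim (2.61) and Zeb2 (2.42) rose too. The list of catenins and cadherins gave 6 higher and 6 lower of 19. These shares were near those of all genes, so the counts are not a result about the list.

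**Figure D2:**
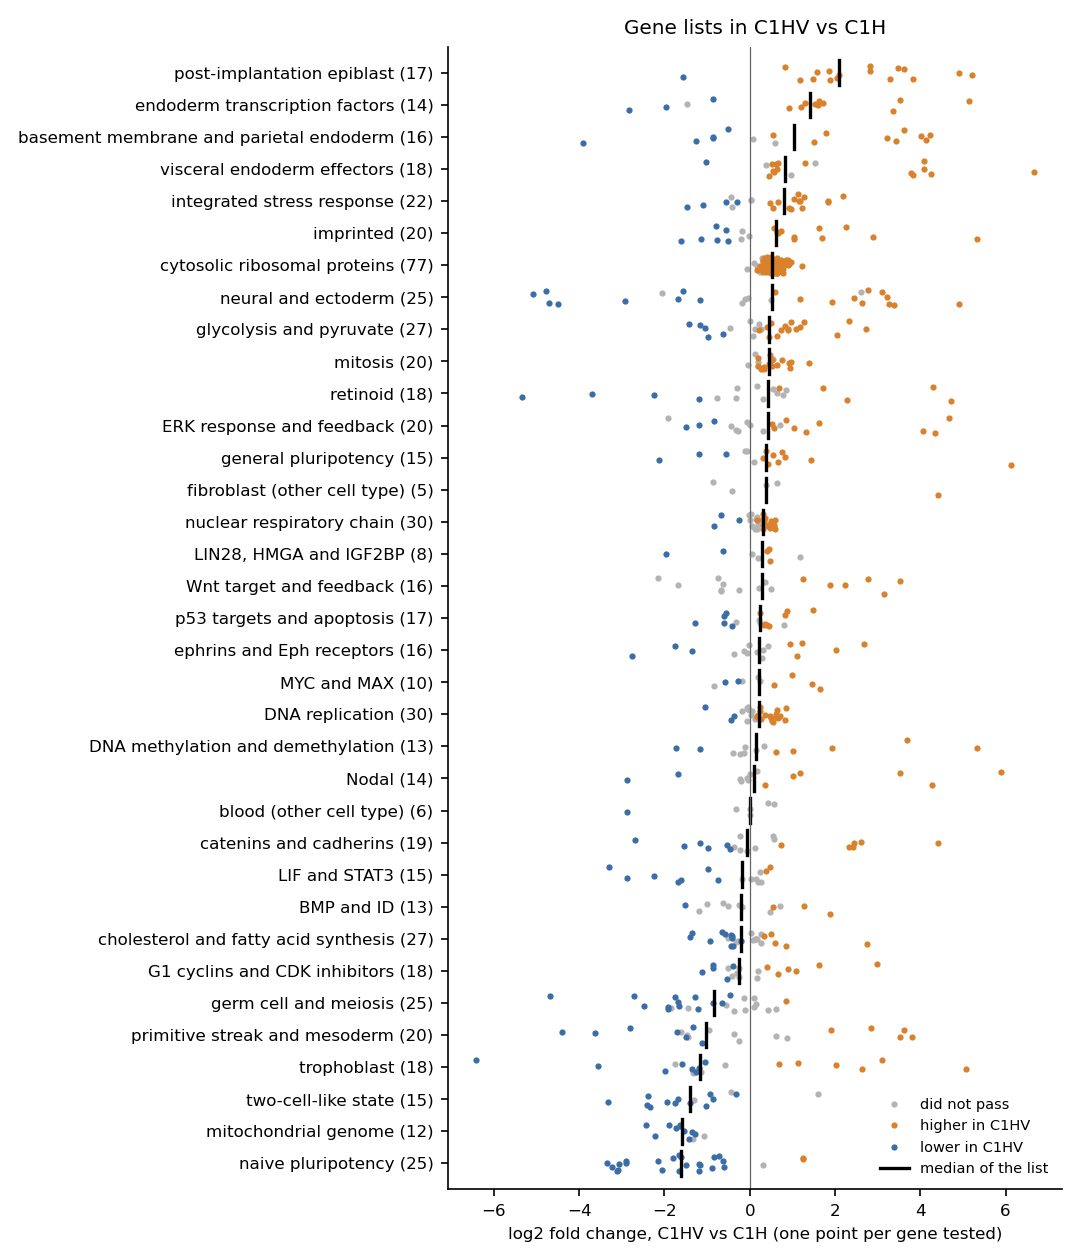
Log2 fold changes of C1HV against C1H (x axis) for the tested members of the 35 lists (rows), with 1 point per gene and the list's median marked. The naive list sits mostly below 0 with a median of -1.61 and the post-implantation epiblast list above it with a median of 2.10; fitted values of genes with a group at the counting floor are included and depend on the prior count.

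Lineage genes went both ways for ectoderm and were mostly higher for endoderm, beside 22.0% higher and 25.1% lower among all genes. Of 25 neural and ectodermal genes 11 rose and 8 fell, with a median of 0.51, or 0.00 with the 10 genes at the floor put at their bounds. Sox1, the earliest neural factor, rose from 12.9, 17.1, 16.1 and 13.9 CPM to 99.1, 80.2, 96.3 and 97.5 (2.63, SE 0.13). Sox11 rose from 27.3 to 34.1 CPM to 257.0 to 314.0 (3.27) and the neuronal tubulin Tubb3 from 6.59 to 12.2 CPM to 86.2 to 108.4 (3.38). In contrast the anterior gene Otx1 fell from 13.0 to 17.4 CPM to 0 to 1.55, at least 9.24-fold lower. Of 20 primitive streak and mesoderm genes 5 rose and 7 fell, shares near those of all genes, so these counts are not a result about the list. Meox1, 1 of the 5, had reads in C1HV replicate 4 and in no other library of C1H or C1HV, so it is given no fold and 4 remain without that library. The organizer gene Gsc fell from 14.3 to 16.4 CPM to 0 to 1.14, at least 9.34-fold lower, Pax3 was at least 2.40-fold lower, and Hoxb1 rose from 0.733 to 2.09 CPM to 12.3 to 19.4 (3.53, SE 0.38). Brachyury (T) did not reach the level needed for testing. Of 18 trophoblast genes 6 rose, again a share near that of all genes, and 8 fell. The imprinted H19 rose from 0.341 to 2.20 CPM to 38.4 to 63.5 (5.08) and the keratin Krt18 by 2.02, while Cdx1 was at least 2.77-fold lower.

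Of 14 endoderm transcription factors 10 rose and 3 fell, beside 22.0% and 25.1% of all genes, with a median of 1.42. Gata6, a driver of extraembryonic endoderm, rose from 2.72, 2.44, 1.83 and 4.20 CPM to 26.9, 37, 31.8 and 33.2 (3.52, SE 0.25). The pioneer factor Foxa2 rose from 1.70, 2.44, 2.56 and 2.52 CPM to 22.7, 23.3, 21.9 and 29.9 (3.37, SE 0.28). Sox17 rose from 3.75, 5.57, 2.93 and 3.78 CPM to 12.4, 10.8, 12.0 and 15.0 (1.62, SE 0.30) and Gata4 from 5.23 to 7.56 CPM to 15.9 to 27.4 (1.54, SE 0.25). All 4 separated the groups fully, at levels that stayed under 40 CPM. Cxcr4, Hhex and Elf3 fell.

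Endocytic and structural genes of visceral endoderm were at higher levels. Dab2, an adaptor for endocytosis, rose from 11.6, 10.8, 16.5 and 14.7 CPM to 262.9, 234.3, 252.4 and 264.0 (4.25, SE 0.20), a 19.0-fold rise. The cubilin receptor Cubn had 1 read in 1 C1H library and none in the others, against 12.9, 17.1, 13.3 and 15.6 CPM in C1HV, at least 13.3-fold higher. Its partners amnionless (Amn, 3.78) and megalin (Lrp2, 3.83) rose from 5.04 to 7.69 and 3.83 to 6.72 CPM to 72.8 to 93 and 69.2 to 85.3 CPM, and the angiomotin gene Amot rose from 2.09 to 2.94 CPM to 36.1 to 55.8 (4.08). Of the whole list, 14 of 18 tested members rose and 1 fell (Fst), beside 22.0% and 25.1% of all genes. The median was 0.82, or 0.65 with bounds. Fst lost its call without C1HV replicate 1, 3 or 4 or C1H replicate 1, 2 or 4. That list also holds secreted plasma proteins such as Ttr and Apoa1, and 12 genes of adult hepatocytes, a list written after their values were seen, had reads in all 32 libraries. Their summed level was 700.4 to 1175 CPM in C1H and 1156 to 1692 in C1HV, and 8 of the 12 were higher. The source of these reads is not known. Albumin (Alb) was 339.8 to 553.1 CPM in C1H and 550.0 to 836.7 in C1HV, and Apoa1 stood at 85% to 93.9% of it in C1H and 78.4% to 90.7% in C1HV. Afp, which visceral endoderm makes in quantity, had 0 to 1 reads in C1H and 0 to 2 in C1HV. Without 7 of the plasma proteins (Apoa1, Apoa2, Apoa4, Apob, Ttr, Trf and Rbp4) 8 of 11 members rose and 1 fell, with a median of 3.78. The apolipoprotein genes Apoc2 and Apoe stayed among the 11.

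Basement membrane genes gave 9 higher and 5 lower of 16, beside 22.0% higher and 25.1% lower among all genes. The collagen IV chains Col4a1 and Col4a2 (chromosome 8, 11198423 to 11312826 and 11312805 to 11449287) rose in parallel. Col4a1 went from 15.7, 23.4, 25.3 and 17.2 CPM to 370.3, 374.1, 375.8 and 409.0 (4.22, SE 0.12) and Col4a2 from 8.17, 11.2, 10.3 and 11.8 to 184.9, 195.6, 172.4 and 178.2 (4.14, SE 0.13). They start 21 bases apart on opposite strands and so share a promoter, which is shown here because both transcripts moved. The window runs from 250 bases before to 50 after the Col4a2 start (RefSeq, GRCm38.p6, chr8:11312555-11312854, + strand), and capitals mark the 78 bases that also lie in the window of Col4a1:
Col4a2: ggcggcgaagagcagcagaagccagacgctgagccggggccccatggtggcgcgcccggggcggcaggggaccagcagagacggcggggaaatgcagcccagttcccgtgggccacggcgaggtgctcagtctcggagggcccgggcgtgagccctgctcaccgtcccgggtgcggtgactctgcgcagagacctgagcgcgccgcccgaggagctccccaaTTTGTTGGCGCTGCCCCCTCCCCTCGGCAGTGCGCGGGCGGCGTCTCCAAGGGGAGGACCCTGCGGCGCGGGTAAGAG

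The laminin chain Lama1 rose from 17.7, 16.7, 19.8 and 12.2 CPM to 176.6, 250.8, 196.5 and 208.1 (3.63, SE 0.16). Sparc, a collagen-binding protein abundant in parietal endoderm, went from 767.5, 748.5, 707.6 and 794.1 CPM to 2095, 2071, 2227 and 2198 (1.51, SE 0.07). The collagen chaperone Serpinh1 (3.43), Lamb1 (1.80) and the parathyroid hormone receptor Pth1r (4.02) rose as well. Not every matrix gene followed: besides Nid1, fibronectin (Fn1) fell from 543.5 to 583.2 CPM to 223.2 to 245.8 (-1.27, SE 0.07), as did Lama5 (-0.87), P4ha2 (-0.87) and Lamc1 (-0.50).

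Germ cell and meiosis genes fell in 13 of 25 cases and rose in 1, beside 25.1% and 22.0% of all genes. Stra8, the gatekeeper of meiosis, fell from 71.8, 76.0, 73.3 and 82.4 CPM to 3.61, 1.14, 4.30 and 1.95 (-4.68, SE 0.24), a 25.7-fold decrease. The germ cell RNA-binding protein Dazl fell from 72.9 to 82.8 CPM to 7.75 to 16.9 (-2.49), and Sycp1, of the synaptonemal complex, from 36.1, 42.9, 37.7 and 35.3 CPM to 10.8, 10.8, 9.03 and 9.75 (-1.91, SE 0.20). Taf7l, a testis form of a general transcription factor subunit, fell less, from 82.4, 68.0, 75.8 and 82.8 CPM to 42.9, 72.8, 57.2 and 50.1 (-0.47, SE 0.15), with overlap. Mael, a piRNA factor, was the 1 member that rose (0.85, SE 0.23), from 5.88 to 14.3 CPM to 11.1 to 22.7, also with overlap.

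Some promoters of this list hold the same short sequence. The E-box CACGTG, a palindrome that reads alike on both strands and is the site of MYC, MAX and MGA proteins, lies in the 300-base RefSeq window of 10 of the 23 members that have a window (43.5%), against 1336 of 11666 windows of tested genes (11.5%) and 2187 of all 27025 (8.09%). Windows of 3 members that carry it, which rose in the knockout cells described below, are shown with the E-box in capitals. Its first base lies 223 bases (Mael), 94 bases (Sycp1) and 49 bases (Taf7l) before the start (GRCm38.p6, - strand, chr1:166238695-166238994, chr3:102936051-102936350 and chrX:134476441-134476740):
Mael: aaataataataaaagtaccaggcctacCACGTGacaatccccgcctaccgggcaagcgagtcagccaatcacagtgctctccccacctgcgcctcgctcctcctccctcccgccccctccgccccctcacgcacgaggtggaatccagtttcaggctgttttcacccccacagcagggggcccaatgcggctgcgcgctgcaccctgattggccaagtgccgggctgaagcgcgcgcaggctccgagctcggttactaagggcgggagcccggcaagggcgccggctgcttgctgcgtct
Sycp1: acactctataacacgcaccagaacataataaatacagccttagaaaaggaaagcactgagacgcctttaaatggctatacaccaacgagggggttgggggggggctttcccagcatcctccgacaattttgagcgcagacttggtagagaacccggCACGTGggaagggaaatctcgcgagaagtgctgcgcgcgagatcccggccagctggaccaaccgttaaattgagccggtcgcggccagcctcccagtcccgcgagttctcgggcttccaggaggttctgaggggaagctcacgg
Taf7l: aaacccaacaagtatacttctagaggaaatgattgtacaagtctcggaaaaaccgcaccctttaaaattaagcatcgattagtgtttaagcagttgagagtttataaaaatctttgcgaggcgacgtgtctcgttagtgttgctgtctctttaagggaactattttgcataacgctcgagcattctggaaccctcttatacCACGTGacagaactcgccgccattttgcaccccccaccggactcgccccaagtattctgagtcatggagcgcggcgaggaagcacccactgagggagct

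Between C1H and C1HV the 10 members with the E-box had 5 lower and 1 higher, with a median log2 fold change of -0.51. The 13 without it had 7 lower, with a median of -1.44, beside 25.1% lower and 22.0% higher among all genes. Of 15 tested genes of the two-cell-like state, a rare ESC state, 12 fell and 0 rose, beside the same shares. Their median was -1.40. Without C1HV replicate 1 or C1H replicate 3, 1 rose. Usp17la fell from 43.2, 48.8, 36.3 and 35.3 CPM to 5.16, 2.27, 6.45 and 1.30 (-3.32, SE 0.26) and Gm8300 from 29.4 to 39.9 CPM to 7.80 to 14.2 (-1.76). The Usp17l and Zscan4 genes are families of near-identical copies. As only uniquely mapped reads were counted, reads that align to several copies were left out.

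Ribosomal protein and mitosis genes rose with none lower, beside 22.0% higher and 25.1% lower among all genes. Of 77 cytosolic ribosomal protein genes 71 rose and 0 fell, with a median of 0.52. Mitosis genes gave 15 of 20 higher and 0 lower (median 0.46), led by Cdc20 (1.38), Ccna2 (0.97) and Ccnb1 (0.95), and DNA replication genes 17 of 30 higher and 3 lower (Orc1, Gins3 and Orc6). Of the G1 list 6 of 18 rose, led by Ccnd2 (2.99), Cdk6 (1.62) and Cdkn1c (1.08), and 5 fell, led by Rbl2 (-1.13), shares near those of all genes. Of 10 MYC and MAX genes Mycl (1.66), Mycn (1.45), Mxd3 (0.99) and Mxd4 (0.57) rose and Mxi1 (-0.59) and Mga (-0.27) fell. Without C1H replicate 2 the number that rose was 2. Integrated stress response genes gave 14 of 22 higher, led by Stc2 (2.19), and 4 lower, and p53 targets 8 of 17 higher, led by Bbc3 (1.48), and 5 lower, led by Perp (-1.28). Without C1HV replicate 1 only 5 of these targets rose. Of 20 imprinted genes 11 rose, with Mest (2.90) and Peg3 (2.26) after Nnat, and 6 fell, led by Plagl1 (-1.62). H19 (5.08), also imprinted, was counted with the trophoblast genes.

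Glycolysis genes gave 16 of 27 higher and 5 lower, beside 22.0% higher and 25.1% lower among all genes. The lactate exporter Slc16a3 rose from 22.5, 23.4, 27.5 and 30.3 CPM to 147.2, 161.5, 191.3 and 180.8 (2.73, SE 0.11) and the glucose transporter Slc2a1 from 35.2 to 42.2 CPM to 156.4 to 249.0 (2.34, SE 0.11). The phosphofructokinase isoforms moved apart, with Pfkl higher (2.05) and Pfkp lower, from 311.6 to 342.0 CPM to 108.6 to 146.3 (-1.42, SE 0.09). Of 30 nuclear respiratory chain genes 17 rose and 3 fell with a median of 0.31, whereas of 12 tested genes of the mitochondrial genome 10 fell and 0 rose with a median of -1.60. For instance mt-Nd1, a subunit of complex I, fell from 4964, 5427, 6214 and 5869 CPM to 2025, 1707, 1755 and 2187 (-1.55, SE 0.09). Cholesterol and fatty acid synthesis genes gave 5 of 27 higher, a share near that of all genes, and 11 lower.

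The comparison with the knockout cells asks which of these changes went beyond those of C1 cells that differentiated without ever having been induced (C1T against C1). C1T kept TMP during differentiation while C1HV did not, and C1 was not selected by mCherry level. Earlier induction, the loss of TMP and this selection therefore cannot be told apart in this comparison. The difference between these changes passed for 1633 genes in the positive direction (10.7%) and 1716 in the negative (11.2%), in an interaction contrast that shares no library between its sides. Of the basement membrane genes 12 of 16 were positive and 0 negative, with a median difference of 2.18 log2 units, beside -0.05 over all genes. Sparc fell in the knockout cells, from 1328 ± 131.1 CPM in C1 to 217.9 ± 19.3 in C1T (SD, n = 4), and rose in the high fraction, a difference of 4.12 (SE 0.10, edgeR FDR = 3.5e-78). Col4a2 was 18.0 ± 1.07 CPM in C1 and 12.5 ± 1.47 in C1T (difference 4.66, SE 0.25), and Lama1 13.9 ± 2.37 and 4.48 ± 1.42 (5.31, SE 0.38). Of the endoderm factors 6 of 14 were positive and 1 negative. Foxa2 stayed at 1.91 ± 1.39 CPM in C1 and 2.00 ± 0.955 in C1T (difference 3.28, SE 0.64), and Sox17, at 2.36 ± 0.974 CPM in C1, was at the counting floor in C1T, so its positive difference is given no size. Of the visceral endoderm list 6 of 18 were positive and 0 negative. All 6 lay among the 11 members left once 7 plasma proteins were set aside. Of the 12 hepatocyte genes 0 passed in either direction. The largest positive differences by the rule for named genes also included Spink1, at 3.20 ± 1.23 CPM in C1 and 4.52 ± 1.43 in C1T (6.03, SE 0.62), and the serine protease Htra1, which fell by 5.00 log2 units in the knockout cells and by 0.53 in the high fraction (4.48, SE 0.30).

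Germ cell genes gave the opposite picture, with 0 of 25 positive and 17 negative, beside 10.7% and 11.2% of all genes. The median was -2.05. Their summed level differed at the start, at 403 to 422.7 CPM in C1 and 905 to 949.1 in C1H. At day 4 the ranges overlapped, at 447.9 to 553.9 CPM in C1T and 432.4 to 502.1 in C1HV. Sycp1 rose from 4.53 ± 1.40 CPM in C1 to 27.3 ± 5.51 in C1T and fell in the high fraction, in which the pluripotent level was already 37.99 ± 3.40 (difference -4.54, SE 0.32). Taf7l rose from 13.5 ± 3.58 to 76.6 ± 18.5 CPM in the knockout cells (-2.97, SE 0.24). Of the 10 members with the E-box shown above 9 were negative, with a median of -2.49, and of the 13 without it 7, with a median of -1.28. Two-cell-like genes gave 11 of 15 negative and 0 positive. Their summed level was 191.9 to 236.6 CPM in C1 and 303.8 to 334.7 in C1H. At day 4 it was 160.6 to 175.6 CPM in C1T and 154.9 to 172.3 in C1HV.

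Pluripotency and epiblast genes differed in size. Of the naive list 11 of 25 were positive and 5 negative, beside 10.7% positive and 11.2% negative among all genes. Klf4 fell from 1284 ± 108.7 to 39.99 ± 3.28 CPM in the knockout cells, by 5.00 log2 units against 3.07 (difference 1.93, SE 0.16), and the differences of Tfcp2l1 (1.48), Esrrb (0.95), Nanog (0.89) and Zfp42 (0.79) had the same sign. Of the post-implantation list 0 of 17 were positive and 4 negative, Pou3f1 among them (-2.40, SE 0.38). Dnmt3a reached 798.0 ± 54.8 CPM in C1T, against 177.9 ± 14.2 in C1HV (-2.17, SE 0.14), and Hoxb1 85.8 ± 13.3 against 16.1 ± 3.01, a negative difference given no size since C1 was at the counting floor. E-cadherin fell in the high fraction, where it stood at 583.8 ± 47.4 CPM in C1H, and was 233.5 ± 15.1 in C1 and 299.6 ± 47.5 in C1T (-1.90, SE 0.11). Igsf9 (-3.40), the stress gene Gadd45g (-3.39) and the fatty acid carrier Fabp5 (-2.66) were, with Taf7l, the largest negative differences by the rule. Glycolysis genes gave 17 of 27 positive and 0 negative and p53 targets 1 positive and 10 negative of 17. The summed glycolysis level differed at the start, at 6151 to 6506 CPM in C1 and 3950 to 4164 in C1H. At day 4 its ranges overlapped, at 6279 to 6530 CPM in C1T and 5789 to 7461 in C1HV.

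**Figure D3:**
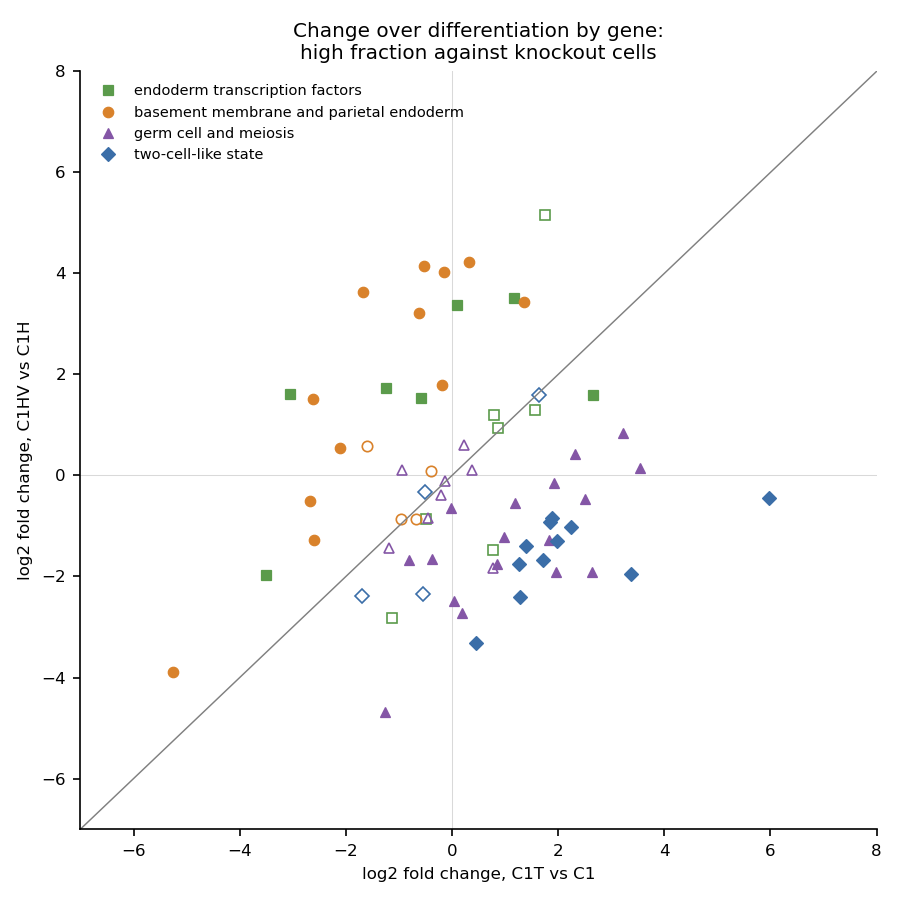
Log2 fold change in the high fraction (C1HV against C1H, y axis) against that in the knockout cells (C1T against C1, x axis) for the tested members of 4 gene lists, filled where the difference passed FDR under 0.05. Basement membrane genes lie above the diagonal (12 of 16 filled, all positive) and germ cell genes below it (17 of 25 filled, all negative).

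The comparison with the moderate fraction asks whether the starting dose mattered to the same withdrawal. The difference between the 2 changes passed for 8 of 15280 genes (0.0524%), 2 positive (0.0131%) and 6 negative (0.0393%), with 1064 genes at an unadjusted p under 0.05. Ctnnb1 led them, at 12.2 ± 3.84 CPM in C1M and 9.16 ± 2.57 in C1MV (difference -2.23, SE 0.34, edgeR FDR = 1.35e-05). Slc7a7 rose from 5.51 ± 2.25 to 61.0 ± 8.20 CPM in the moderate fraction and from 1.88 ± 0.712 to 69.2 ± 8.68 in the high one (1.71, SE 0.36). Otx2 rose from 108.6 ± 10.8 to 278.5 ± 26.8 CPM, and from a lower start to a similar end in the high fraction (0.53, SE 0.12). On the negative side were Slc13a5 (-1.19, SE 0.26), Gm21761 (-0.90, SE 0.17), the choline kinase Chka (-0.87, SE 0.18), the elongation factor subunit Nelfa (-0.77, SE 0.15) and Fbxo15 (-0.52, SE 0.10), a naive marker. Leaving out 1 library at a time gave 0 to 8 positive and 4 to 10 negative genes. Col4a2, at 186.7 ± 22.3 CPM in C1MV and 182.8 ± 9.96 in C1HV, Foxa2, at 21.2 ± 2.63 and 24.5 ± 3.67, and Klf4, at 119.7 ± 23.6 and 104.3 ± 17.0, ended with overlapping libraries in the 2 groups; that a difference missed the threshold does not show that the fractions behaved alike.

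**Figure D4:**
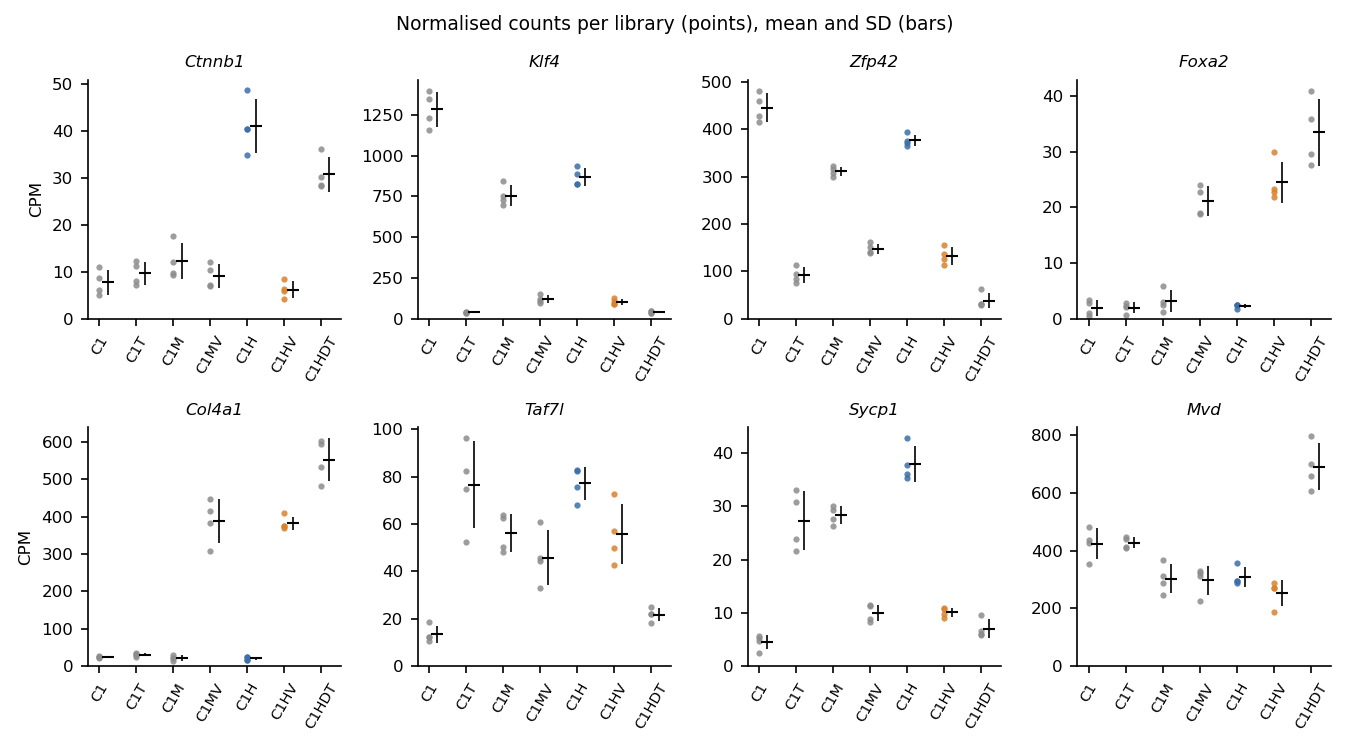
CPM (y axis) of Ctnnb1, Klf4, Zfp42, Foxa2, Col4a1, Taf7l, Sycp1 and Mvd in 7 groups (x axis), with 1 point per library and the mean ± SD (n = 4). Foxa2 and Col4a1 are high in the day 4 groups of both induced fractions and low in C1T, while Sycp1 is high in C1H (37.99 CPM) and in C1T (27.3 CPM) and lower in C1HV (10.1 CPM).

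Withdrawal against constant induction, at day 4 in the same fraction, compares C1HV with C1HDT directly. C1HDT kept both dox and TMP and C1HV had neither, so the loss of dox and that of TMP cannot be told apart. Naive genes were higher after withdrawal, and cholesterol synthesis genes were lower. In all, 1053 genes were higher in C1HV (6.89%) and 1384 lower (9.06%), or 1331 higher and 1098 lower when libraries were scaled by their total counts alone. Ctnnb1 was 30.8 CPM in C1HDT against 6.21 in C1HV (-2.26, edgeR FDR = 3.7e-15). Of the naive list 19 of 25 were higher in C1HV and 1 was lower, with a median of 0.99. Zfp42 was 133.2 ± 18.5 CPM in C1HV and 38.5 ± 16.3 in C1HDT (1.77, SE 0.18), Klf4 104.3 ± 17.0 and 42.7 ± 6.54 (1.28, SE 0.12), and Jam2 (1.59), Esrrb (1.45) and Nanog (1.01) were higher too. Of the LIF list 7 of 15 were higher and 1 lower, and of the post-implantation list 0 were higher and 8 lower, among them Etv4 (-1.27) and Pou3f1 (-0.72). Aqp3 (1.82) and the nuclear long noncoding RNA Neat1, at 146.2 ± 10.9 and 48.2 ± 5.82 CPM (1.61, SE 0.10), completed the largest positive differences.

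The cholesterol and fatty acid list gave 26 of 27 lower in C1HV and 0 higher, beside 9.06% and 6.89% of all genes, with a median of -0.90. With scaling by total counts alone 23 of the 27 were lower. Mvd, of the mevalonate pathway, was 271.1, 188.2, 286.8 and 269.8 CPM in C1HV against 692.3 ± 80.6 in C1HDT (-1.44, SE 0.14), and Pmvk, the preceding kinase, 110.0, 81.9, 122.1 and 103.4 against 291.0 ± 12.4 (-1.47, SE 0.09). In C1H these genes stood nearer to C1HV: Mvd was 309.3 ± 33.3 CPM and did not pass between C1H and C1HV (-0.28, SE 0.14, edgeR FDR = 0.0943). The summed level of the list was 3772 to 4014 CPM in C1H, 2850 to 3220 in C1HV and 5450 to 6023 in C1HDT. It was also high in the cells never induced, at 5444 to 6153 CPM in C1 and 4862 to 5135 in C1T. Against the change in these knockout cells 10 of 27 were negative and 3 positive, beside 11.2% and 10.7% of all genes. Against C1HDT, glycolysis genes were lower in C1HV in 11 of 27 cases and higher in 2. Basement membrane genes were lower in 7 of 16 and higher in 2, with Sparc at 3238 ± 309.2 CPM in C1HDT (-0.59, SE 0.07). The neuronal receptor gene Nptxr (-1.44) and Zfp771 (-1.45) were the other large negative differences. C1HDT and C1HV share the C1H libraries as their start, so their changes from C1H are not independent.

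**Figure D5:**
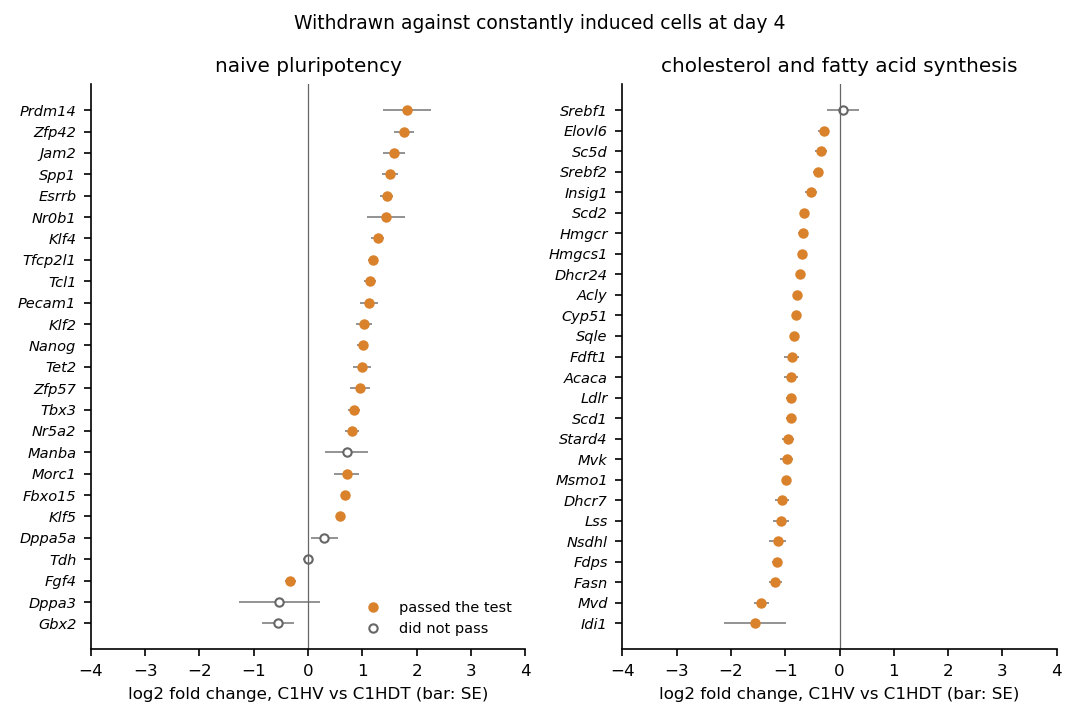
Log2 fold change of C1HV against C1HDT (x axis, ± SE) for the members of the naive pluripotency and the cholesterol and fatty acid lists (rows). Of the naive genes 19 of 25 passed with higher levels after withdrawal, and of the 26 cholesterol genes drawn 25 passed with lower levels.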

How the data were processed

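RNA of 32 libraries in 8 groups of 4 was converted with the QuantSeq 3′ mRNA-Seq kit, which primes at the poly(A) tail and marks strand. The authors trimmed the reads, aligned them with STAR to mm10 with Ensembl 93 annotation and deposited whole-number counts of uniquely mapped reads per gene, not normalised, for 31053 genes, 1 table per library. Reads outside genes were kept out of library sizes; their share of uniquely mapped reads is given with the results. Library sizes ran from 1366951 to 3648787 reads on genes.

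Gene symbols and coordinates were taken by Ensembl identifier from GENCODE M21 (mm10), which named 31011 of the 31053 genes, and promoter windows from RefSeq (GRCm38.p6), which matched 11666 of the tested genes. The 15280 genes that reached 1 CPM in 4 or more libraries entered edgeR 4.0.16 in R 4.3.3: TMM scaling, a robust quasi-likelihood fit over all 32 libraries with 1 term per group and Benjamini-Hochberg adjustment over all tested genes at 0.05. Contrasts were C1HV against C1H, that change less the change of C1T against C1 or of C1MV against C1M, and C1HV against C1HDT. CPM are TMM-scaled. Where every library of a group held 3 reads or fewer, that group was put at 3 reads per library and the fold is a bound. The fitting code was tested on simulated data. Alternatives were DESeq2 1.42.0, other scalings, filters and tests, a replicate block and the omission of single libraries.

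Named genes were Ctnnb1 and Axin2; the 10 largest rises and decreases between non-overlapping groups whose log2 CPM averaged 4 or more; the 3 largest in each direction of each list, and any member on which a count of 5 or fewer turned; and the 4 largest in each direction of the other contrasts. Levels of further list members and group levels outside the contrasts were printed after their values were seen. The values of 2 genes named by this rule are not reported here. The groups, the 35 lists and the tests were chosen with earlier results of these data known. Of 739 list genes 681 were tested, 52 were too low and 6 are not analysed here. The labels describe culture in serum and LIF, whereas the study's methods give 2i/L for these libraries; the latter was followed.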

Additional observations from a re-analysis of the deposited data

Results flagged for a closer look

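In 194 groups of 4 libraries, 1 gene and 1 group at a time, the highest or lowest library was tested against the rest of its group by Dixon's criterion; 11 groups passed (5.67%), where chance gives about 1 in 20. In C1HV, replicate 1 was high for Spink1 (153.9 CPM, others 130.3 to 132.6) and Dnmt3b (279.9, others 265.3 to 267.2), replicate 2 low for Otx2 (279.2, others 296.2 to 298.4) and Sox1 (80.17, others 96.31 to 99.15), replicate 3 low for Smad7 (23.22, others 31.5 to 32.51) and replicate 4 high for Col4a1 (409, others 370.3 to 375.8). In C1H, replicate 1 was low for Tdgf1 (527.8, others 584.3 to 592) and Foxa2 (1.703, others 2.439 to 2.564) and high for Cubn (0.3405, others 0) and Mvd (358.9, others 287.5 to 295.8), and replicate 3 was low for Ccnd1 (14.28, others 18.07 to 18.82). Each of these genes except Mvd passed between C1H and C1HV, and for each that passed the groups were apart with the library in place.

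The change of the high fraction differed from that of the knockout cells, by the interaction test, for Spink1 (6.03), Lama1 (5.31), Col4a2 (4.66) and Htra1 (4.48) in the positive direction and for Igsf9 (-3.40), Gadd45g (-3.39), Taf7l (-2.97) and Fabp5 (-2.66) in the negative, in log2 units. Against the moderate fraction the same test gave Slc7a7 (1.71) and Otx2 (0.53), and Slc13a5 (-1.19), Gm21761 (-0.90), Chka (-0.87) and Nelfa (-0.77). Differences of 14 genes are listed in all, the largest by the rule for named genes.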

How the results depend on the processing

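Between C1HV and C1H the calls stayed within 1.5 times of 3357 higher and 3829 lower genes under every alternative run, with 3048 to 3233 higher and 3420 to 3684 lower when 1 library was left out. Against the knockout cells, leaving out 1 library gave 1487 to 1604 positive and 1486 to 1627 negative differences, and between C1HV and C1HDT 760 to 1049 higher and 1003 to 1362 lower, the lowest without C1HV replicate 2. Scaling by library size alone gave 1331 higher and 1098 lower genes in C1HV against C1HDT, so that the share higher went from 43.2% to 54.8% of calls. Against the moderate fraction, where 2 genes were positive, 1 was positive with at least 1 CPM required in all 32 libraries, 1 when the 4 groups were fitted alone and 20 by DESeq2, with 1 gene shared and no adjusted p for 6 of the 8 genes, which its own filter on low means set aside; leaving out 1 library gave 0 to 8 positive and 4 to 10 negative, with the highest counts without C1MV replicate 4. The difference of Otx2 lost its call in 12 fits, and those of Slc7a7, Slc13a5 and Chka in 4 each. The 1 direction that was not kept was that of Meox1, between C1HV and C1H, whose fitted value ran from 0.00, without C1HV replicate 4, to 4.29 when 1 library was left out; that library held all its reads, so these values are no measured fold. Calls of Fst, Bmp8b, Epha5, Mxd4, Myc, Igf2, Hhex, Cxcr4 and Manba were also lost in at least 1 alternative. Counts of list members moved by more than 1.5 times in 40 cases under other settings, most of them small counts between C1HV and C1HDT, and stayed within that in 592; with 1 library left out they moved in 15 cases and stayed in 545, the count of naive genes that rose falling to 1 without C1HV replicate 2. The causes were not tested. With the replicate number as a block 3331 genes were higher and 3793 lower; deviations of libraries with the same number in C1H and C1HV correlated at -0.010 to 0.019 and 2 of 4 libraries correlated best with their own number, so the numbers were not taken to pair libraries. Genes under 1 CPM, Brachyury among them, were beyond the depth of these libraries.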

Other observations

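The 12 adult hepatocyte genes were also detected in the groups outside the main comparison, at a summed level of 1321 to 1737 CPM in C1 and 1326 to 2507 CPM in C1T, so that the C1HV range of 1156 to 1692 CPM lay no higher than that of the knockout cells. The ratio of Ttr to albumin was 23.9% to 25.2% in C1H and 21.6% to 25.7% in C1HV. Apolipoprotein E (Apoe), which many cell types express, was 287% to 385% of albumin in C1H and 290% to 431% in C1HV.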
